A study of Mus musculus with 24 samples.

Results

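The genes described here encode the lysosomal cathepsins, the subunits of the vacuolar proton pump, the lysosome-associated membrane proteins LAMP1 and LAMP2, and the mucolipin channels. They were picked by symbol (Cts followed by 1 letter, Atp6v, Atp6ap, Lamp1, Lamp2 and Mcoln) and by a value of at least 4 in at least 3 of the 24 columns of the expression table. Of 24273 genes in the table, 42 had such a symbol and 35 of these reached the level. In 34 of the 35 the value was at least 4 in all 24 columns, and these 34 are counted below. The remaining gene, Ctse, reached 4 in 5 columns, all from libraries labelled FosKO, and is described on its own. The 7 symbols that missed the level were Atp6v0a4, Atp6v0c-ps1, Atp6v0e2, Atp6v1b1, Atp6v1c2, Ctsg and Ctsw. The level chose the genes, so their being expressed is no finding. Just inside the threshold stood Ctse (3.25 to 4.28) and Mcoln3 (4.86 to 5.61), and just outside it Atp6v0c-ps1, whose highest value was 1.21.

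Lysosomes degrade proteins, lipids and sugars delivered by endocytosis, phagocytosis and autophagy, and macrophages are rich in them. Their lumen is kept acid by the vacuolar ATPase, in which the cytosolic V1 domain hydrolyses ATP and the membrane V0 domain carries protons. Most cathepsins are proteases that are made as inactive precursors and matured in this acid compartment. Many lysosomal genes carry a CLEAR-type E-box near their start, which the MiT factors TFEB, TFE3 and MITF bind.

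RNA was sequenced from bone marrow-derived macrophages (BMDMs) of C57BL/6 mice, which are macrophages grown in culture from marrow cells. The 2 genotypes were LysM-Cre, used as control, and FosKO, in which Cre at the lysozyme locus Lyz2, active in myeloid cells, was to remove floxed Fos (Fos fl/fl), a subunit of the AP-1 transcription factor. Both genotypes thus carried LysM-Cre. The series describes the controls as LysM-Cre, and the study's text also gives them 1 floxed Fos allele. Cells received no lipopolysaccharide (LPS, the bacterial ligand of TLR4; 0 h, the baseline) or 100 ng/ml LPS for 0.5, 1 or 2 h, with 3 libraries in each of the 8 groups. The study calls the libraries biological replicates. Nothing in the labels says that they came from separate mice, and p-values measure the spread between these libraries only. Gene positions are on the GRCm38 build. All values are deposited normalised log2 values, in which a difference of 1 is a doubling. The study states a typical sequencing yield, but the depth of each library is unknown, so that spread is also the only error given.

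The libraries had 3 features that bear on every comparison. Fos itself was higher, not lower, in the libraries labelled FosKO at baseline (by 1.49, SE 0.09) and at 2 h (by 3.29, SE 0.09), and lower by -0.77 at 0.5 h. One value for the whole gene cannot show whether an exon is missing, so the level of Fos does not check the label. Its mean in LysM-Cre was 11.11, 13.52, 11.15 and 9.52 at 0, 0.5, 1 and 2 h. In the libraries labelled FosKO it was 12.60, 12.75, 12.78 and 12.80. What this flatter course says about the label was not tested. Lyz2 was higher in those libraries by 5.17 at baseline and by 5.06 at 2 h (SE 0.09 each). A difference at the Cre locus cannot be told apart from the Fos genotype. The 18S ribosomal RNA gene Rn18s-rs5 was at most 17.00 in 5 libraries and at least 18.57 in the remaining 19. The 5 came from the middle times: at 0.5 h replicate 3 of LysM-Cre with replicate 1 of FosKO, and at 1 h replicates 2 and 3 of LysM-Cre with replicate 1 of FosKO. The macrophage genes Csf1r (14.95 to 15.28), Adgre1 (14.61 to 15.21), Cd68 (15.05 to 15.38) and Itgam (14.16 to 14.55) varied little among the libraries, and Fcgr1 (12.20 to 13.70) and Mertk (9.07 to 10.99) varied more. Of these 6 and Lyz2, 4 were called higher and 3 lower in FosKO at baseline, and their part in the results was not tested. Of the neutrophil genes, Elane, Prtn3, Ctsg and Ly6g were below 0 in every library. S100a8 (4.09 to 5.41), S100a9 (3.85 to 5.82), Ngp (3.46 to 5.49), Ltf (3.05 to 4.75) and Camp (1.56 to 2.11) were above 0.

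The marker genes of the group were among the most abundant transcripts of these cells. By deposited value Ctsb, a cysteine endopeptidase and carboxydipeptidase, ranked 1 or 2 among the 13901 genes tested in every library, Ctsd ranked 4 to 10, and Lamp1 ranked 33 to 58. These ranks carry no correction for length and are not used to order the genes. Levels of different genes were compared as 2 to the power of the value per kilobase of merged exons, in LysM-Cre at baseline (SD, n = 3). On this scale the aspartic protease gene Ctsd was at 67112 ± 2333, Ctsb at 47629 ± 723, and Ctss, whose enzyme trims the invariant chain of MHC class II, at 40658 ± 1189. Lamp1 (14340 ± 218) and Ctsz (12239 ± 451), which encodes a carboxypeptidase, came next. The proton pump genes reached from 5539 ± 192 for the ring subunit gene Atp6v0c to 19.6 ± 1.8 for Atp6v1g2, the G subunit form best known from neurons. Its relative Atp6v1g1 was at 3062 ± 15.5. Of the B subunits, only the widely expressed Atp6v1b2 (2682 ± 59.3 per kilobase) reached the level, and the kidney and inner ear form Atp6v1b1 did not. Ctsl was at 2466 ± 90.1, Ctsc at 787 ± 26.8 and Ctsh at 596 ± 9.9. The lowest of the 34 were Mcoln3 (12.7 ± 1.6), Ctsf (17.9 ± 0.9) and Atp6v1g2. The spreads of Ctsf and Atp6v1g2 overlapped, as did those of Atp6v0d1 (1638 ± 10.0) and Atp6v0d2 (1679 ± 55.2), the 2 forms of the subunit that joins the V0 ring to the stalk. Merged exon length counts every annotated transcript, so genes with long rare exons are understated.

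Promoters from RefSeq (GRCm38.p6), taken from 250 bases before to 50 bases after the annotated start, matched 26 of the 35 genes and gave 30 promoters. The 9 without a match were Atp6v0a2, Atp6v0d2, Atp6v1b2, Atp6v1c1, Atp6v1g1, Atp6v1h, Ctsb, Ctse and Ctsh. Both strands were searched for 3 motifs: TCACGTG (CLEAR-type E-box), TGANTCA (AP-1) and the core of the interferon-stimulated response element (the 10 capitals of the Ctss stretch printed here, with any 2 bases in the middle). TCACGTG was in 8 of the 30 promoters (26.7%), those of Atp6v0b, Atp6v0d1, Atp6v0e, Atp6v1a, Ctsa, Ctsd, Lamp1 and Mcoln1. It was in 3.77% of all 32851 promoters and in 5.85% of the 12169 promoters of tested genes. TGANTCA was in 1 promoter of the group (3.33%), that of Atp6v0a1, against 7.81% of all promoters and 5.33% of those of tested genes. That core was in 4 (13.3%; Atp6v1d, Ctso, Ctss and Lamp1), against 3.44% and 3.34%. These are matches of letters, not sites shown to be bound. The stretches printed next, 5′ to 3′ on the gene's strand, show the E-box in a protease, a membrane protein, a channel and pump subunit genes, and the other 2 motifs in 1 gene each. Capitals mark the motif, or its reverse complement, and 2 overlapping matches on opposite strands form 1 run of 8 capitals.

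Lamp1, E-box, chr8:13159081-13159180, plus strand: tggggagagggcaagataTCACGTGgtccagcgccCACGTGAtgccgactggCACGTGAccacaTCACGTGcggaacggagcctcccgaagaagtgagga
Ctsd, E-box, chr7:142387893-142387952, minus strand: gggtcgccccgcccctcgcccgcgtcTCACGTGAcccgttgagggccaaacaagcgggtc
Ctsa, E-box, chr2:164833733-164833797, plus strand: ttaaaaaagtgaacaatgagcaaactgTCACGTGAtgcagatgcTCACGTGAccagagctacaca
Mcoln1, E-box, chr8:3500424-3500503, plus strand: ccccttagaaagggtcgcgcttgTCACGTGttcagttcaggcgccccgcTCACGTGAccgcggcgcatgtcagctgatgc
Atp6v0b, E-box, chr4:117887320-117887389, minus strand: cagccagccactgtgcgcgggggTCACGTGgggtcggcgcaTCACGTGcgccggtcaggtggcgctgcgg
Atp6v0d1, E-box, chr8:105566045-105566104, minus strand: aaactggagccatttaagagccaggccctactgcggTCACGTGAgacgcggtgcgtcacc
Atp6v0a1, AP-1 motif, chr11:101010258-101010317, plus strand: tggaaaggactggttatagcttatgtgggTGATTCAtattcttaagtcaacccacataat
Ctss, response element core, chr3:95526726-95526785, plus strand: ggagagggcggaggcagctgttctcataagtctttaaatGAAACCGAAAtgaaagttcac

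The Lamp1 stretch held 4 E-boxes, which began at positions -62, -45, -28 and -16 from the annotated start. The Ctsd promoter held 2, at -245 and at -99, and the second is in the stretch printed. In Atp6v0d1 the motif spanned the start itself. The 8 genes with an E-box did not share one pattern in the expression data. As deposited 5 of them (Atp6v0d1, Atp6v0e, Ctsa, Ctsd and Lamp1) were called higher in FosKO at all 4 times. Atp6v1a and Mcoln1 were called higher at 3 times and Atp6v0b at none. Of all the genes counted here, whatever their promoter, 58.8% were called higher at all 4 times, against 11.4% of all tested genes. Genes without an E-box were not tallied separately. After quantile normalisation Atp6v0d1 alone of the 8 was called higher at all 4 times. Ctsa and Lamp1 were called higher at 3, Mcoln1 at 2, Atp6v0e at 1 and Ctsd at none. Atp6v1a was then called lower at baseline (-0.11) and at 1 h (-0.13). Under that scaling 23.5% of all the genes counted here were called higher at all 4 times. The share of all tested genes was not counted there.

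To ask what the Fos genotype changes in this set, FosKO was compared with LysM-Cre at each time. Most cathepsin and pump genes were modestly higher in the libraries labelled FosKO, Ctsl was clearly lower, and Ctsc, Ctsz, Ctsh and, up to 1 h, Mcoln2 differed most in the upward direction. At 0 h 25 of the 34 genes were called higher and 2 lower by limma, where 19.5% of all 13901 tested genes were called higher and 15.9% lower. At 0.5 h 25 were higher and 2 lower (background 21.2% and 19.7%), at 1 h 21 and 2 (background 18% and 15.9%), and at 2 h 25 and 1 (background 24.4% and 20.3%). The median difference of the 34 genes was 0.17, 0.19, 0.14 and 0.18 at the 4 times, and the median of all tested genes stayed between -0.003 and 0.004. The 4 genotype comparisons use separate libraries of the same 2 genotypes. Within a genotype, however, 30 of 36 same-numbered pairs of libraries from different times correlated best with their own number. The 4 times may thus not be independent, and a call at all 4 times is not 4 separate results.

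The upward count depended on the scaling of the libraries. After quantile normalisation, which gives every library the same distribution of values, 16, 21, 14 and 9 of the 34 genes were called higher at 0, 0.5, 1 and 2 h, and 4, 2, 4 and 2 lower. Of all tested genes 16.4%, 19.0%, 15.0% and 18.7% were then called higher, and 19.8%, 22.7%, 20.0% and 24.7% lower. The median differences were then 0.10, 0.13, 0.06 and 0.04. Of the 34 genes, 18 had a mean value of 12 or more, a level reached by 1032 of the 13901 tested genes. Those 1032 genes were themselves higher in the libraries labelled FosKO by a median of 0.05 at baseline and 0.09 at 2 h. After quantile normalisation their median difference was -0.04 at baseline and -0.06 at 2 h. With scaling factors of the TMM type the counts stayed within 1.5 times those given.

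A total of 20 of the 34 genes (58.8%) were called higher at all 4 times, where 1583 of all tested genes (11.4%) were. They were Ctsa, Ctsb, Ctsc, Ctsd, Ctsh, Ctso, Ctss, Ctsz, Lamp1, Lamp2, Atp6ap2, Atp6v0c, Atp6v0d1, Atp6v0e, Atp6v1c1, Atp6v1d, Atp6v1e1, Atp6v1f, Atp6v1g1 and Atp6v1h. After quantile normalisation 8 of these 20 were still called higher at all 4 times: Ctsc, Ctsh, Ctso, Ctsz, Atp6v0d1, Atp6v1c1, Atp6v1d and Atp6v1e1. Ctsl alone was called lower at all 4 times as deposited (988 of all tested genes, 7.11%, were), and after quantile normalisation Atp6v0a1 was as well. Calls of all tested genes at all 4 times were not counted under that scaling, so its counts have no background. A further 8 genes were called at some times, and 5 at none (Ctsf, Ctsk, Mcoln3, Atp6v0b and Atp6v1g2).

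**Figure D1:**
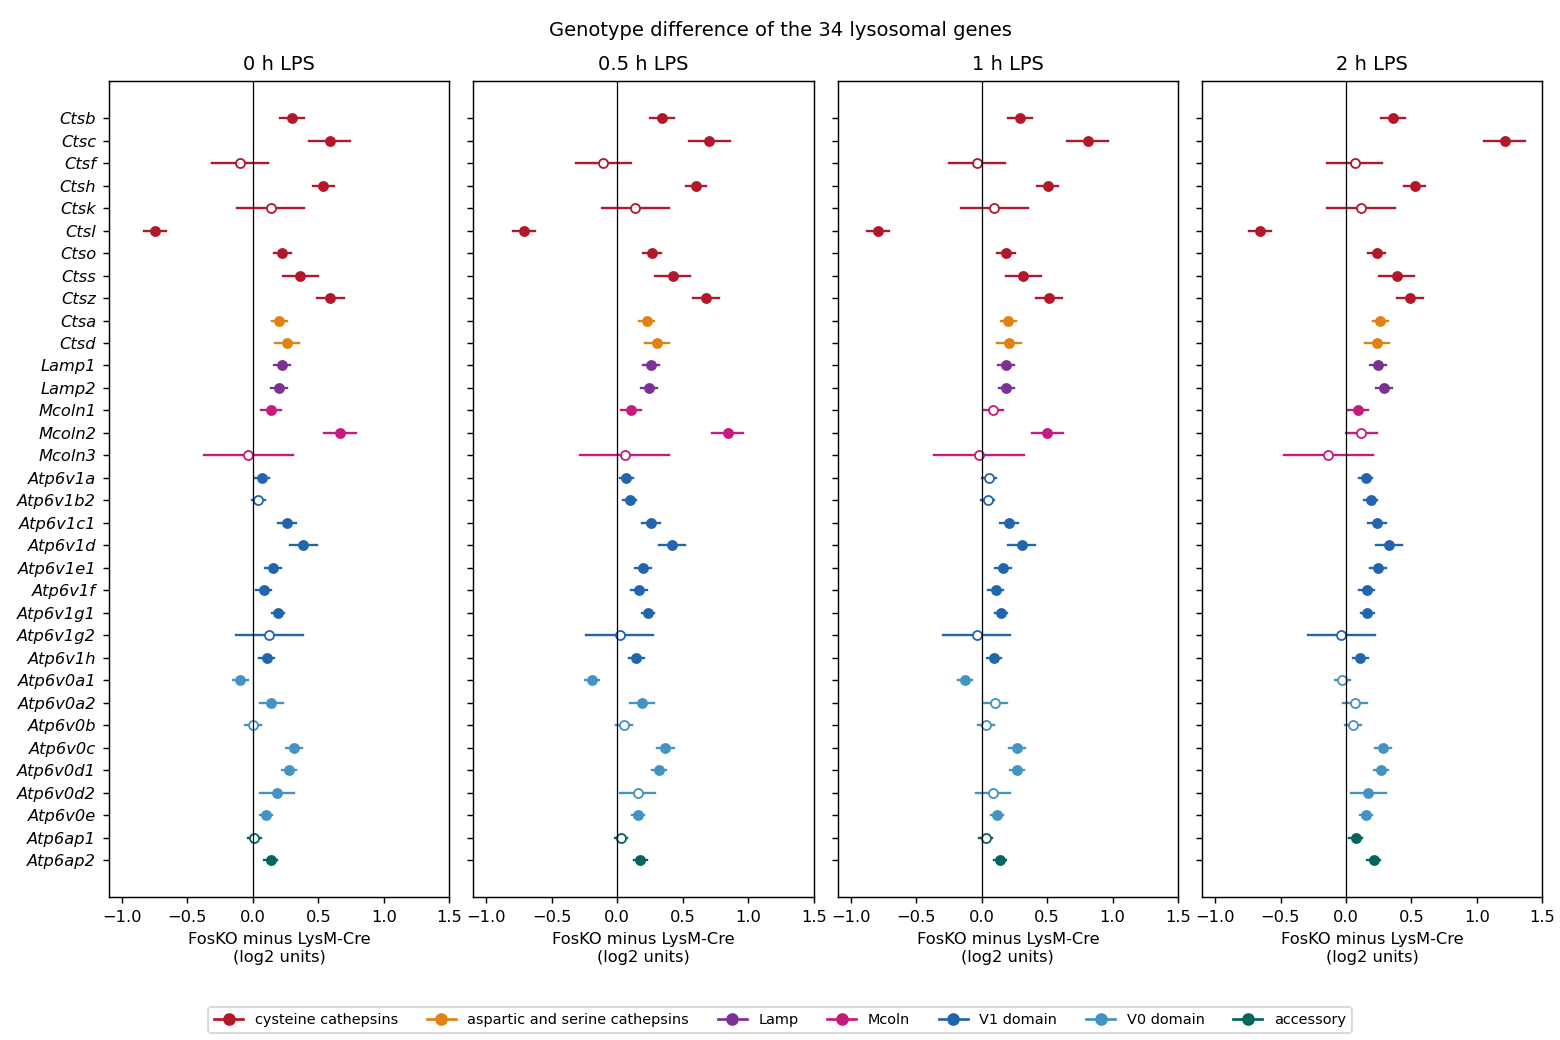
Difference between FosKO and LysM-Cre (log2 units) for the 34 genes at 0, 0.5, 1 and 2 h of LPS, with the 95% interval from limma as a bar; filled points were called at an adjusted p under 0.05 and open points were not, and colours give the role of the gene. Ctsl lies on the left in every panel (-0.75, -0.71, -0.79 and -0.65), and Ctsc moves outward from 0.59 at baseline to 1.21 at 2 h.

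Of the 9 cysteine cathepsins, 6 were called higher and 1 lower at each of the 4 times (background 18% to 24.4% higher and 15.9% to 20.3% lower). After quantile normalisation 5 were higher and 1 lower at baseline, and 4 and 1 at 2 h. Ctsl (ENSMUSG00000021477, chr13:64359337-64370890, minus strand) encodes an endopeptidase that, like cathepsin B, works broadly in protein turnover. Its values in LysM-Cre were 14.03, 13.93 and 13.94 at baseline, then 14.00, 13.92 and 13.93 (0.5 h), 14.07, 14.06 and 14.00 (1 h), and finally 14.03, 13.95 and 14.08 (2 h). In FosKO they were 13.15, 13.26 and 13.23 at baseline, then 13.17, 13.26 and 13.28 (0.5 h), 13.25, 13.28 and 13.22 (1 h), and finally 13.32, 13.36 and 13.42 (2 h). All 12 FosKO libraries were below all 12 LysM-Cre libraries. The difference was -0.75 at baseline (SE 0.04, limma adjusted p 2.62e-11) and -0.65 at 2 h (adjusted p 9.53e-11), which is 0.595 and 0.636 of the LysM-Cre level. Under quantile normalisation it was larger in size, -0.94 and -0.81. Ctsl overlaps a processed pseudogene on its own strand and an antisense gene, Gm49230 and Gm47123, and reads shared with the former would be uncertain.

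Ctsc (ENSMUSG00000030560, chr7:88278085-88310888, plus strand), whose enzyme (dipeptidyl peptidase I) activates granule serine proteases, stood at 12.21, 12.11 and 12.16 in LysM-Cre and 12.65, 12.70 and 12.89 in FosKO at baseline. At 0.5 h it was 12.21, 12.17 and 12.29 against 12.90, 12.76 and 13.11, and at 1 h 12.59, 12.61 and 12.80 against 13.44, 13.52 and 13.47. After 2 h it was 13.14, 13.13 and 13.28 against 14.46, 14.38 and 14.35. The genotypes did not overlap at any time, and the gap was widest at 2 h. The difference was 0.59 at baseline (SE 0.07, limma adjusted p 3.54e-06) and 1.21 at 2 h (adjusted p 1.00e-10), or 1.5-fold and 2.32-fold. It remained called after quantile normalisation (0.50 and 0.99).

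Ctsz (ENSMUSG00000016256, chr2:174427493-174439039, minus strand), which encodes cathepsin X, was at 14.15, 14.12 and 14.05 in LysM-Cre and 14.58, 14.74 and 14.76 in FosKO at baseline, and at 14.35, 14.36 and 14.37 against 14.79, 14.87 and 14.87 at 2 h. The difference was 0.59 (SE 0.05, adjusted p 1.18e-08) and 0.49 (adjusted p 8.06e-08), the second 0.30 after quantile normalisation. Ctsh (ENSMUSG00000032359, chr9:90054152-90076089, plus strand), an aminopeptidase gene, was at 11.36, 11.40 and 11.40 against 11.89, 11.92 and 11.97 at baseline, and at 11.57, 11.62 and 11.74 against 12.20, 12.15 and 12.17 at 2 h. Its difference was 0.54 (SE 0.04, adjusted p 1.64e-09) and 0.52 (adjusted p 1.01e-09). Neither gene had overlapping genotypes at baseline or 2 h.

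The most abundant of the cysteine cathepsins, Ctsb (ENSMUSG00000021939, chr14:63122462-63145923, plus strand), was at 18.14, 18.15 and 18.11 in LysM-Cre and 18.40, 18.47 and 18.42 in FosKO at baseline, and at 18.19, 18.16 and 18.18 against 18.53, 18.55 and 18.53 at 2 h. The genotypes were again apart. The difference was 0.30 (SE 0.04, adjusted p 2.24e-05) and 0.36 (adjusted p 1.32e-06). Quantile normalisation set it to 0.00 at both times, because Ctsb holds the top ranks in every library and equal ranks receive equal values. That scaling sees Ctsb only as rank 1 or 2, and at 1 h, where the ranks were not equal, it gave -0.23 (adjusted p 0.445). Ctss differed by 0.36 and 0.39 and Ctso by 0.23 and 0.23 at baseline and 2 h. After quantile normalisation Ctss differed by 0.28 at baseline and by 0.002 at 2 h (adjusted p 0.984), and Ctso at 2 h by 0.145. Ctsf, a macrophage cathepsin gene, and Ctsk, the collagen-degrading cathepsin of osteoclasts, were low and were not called, with intervals of -0.31 to 0.11 and -0.12 to 0.39 at baseline.

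**Figure D2:**
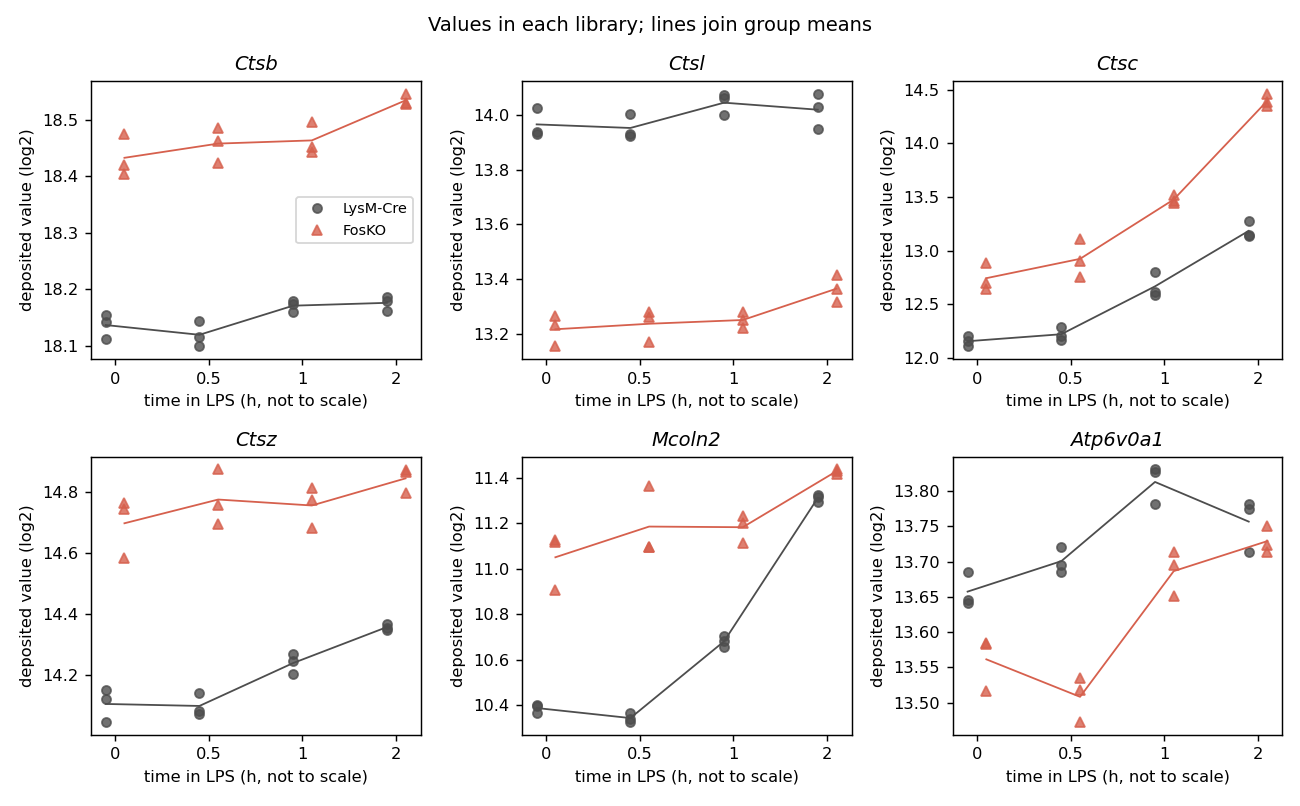
Deposited log2 values of 6 genes in each of the 24 libraries by time in LPS (categories, not to scale); circles are LysM-Cre, triangles are FosKO, and lines join the means of 3 libraries. Ctsb, Ctsz and Ctsc are higher and Ctsl is lower in FosKO at each time, whereas the genotypes converge for Mcoln2 and Atp6v0a1 at 2 h.

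The aspartic and serine cathepsins were both called higher at every time as deposited. Ctsd (ENSMUSG00000007891, chr7:142375911-142388038, minus strand) was at 17.31, 17.28 and 17.21 in LysM-Cre and 17.52, 17.58 and 17.49 in FosKO at baseline, and at 17.28, 17.23 and 17.21 against 17.47, 17.52 and 17.45 at 2 h, with no overlap. The difference was 0.26 (SE 0.04, limma adjusted p 9.35e-05) and 0.24 (adjusted p 0.000176). Under quantile normalisation it fell to 0.10 and 0.00 and was not called, and Ctsd too sits among the top ranks. A second annotated gene, Gm49369, overlaps Ctsd on the same strand. Ctsa, whose product is a carboxypeptidase that also protects beta-galactosidase and neuraminidase in a complex, differed by 0.20 at baseline and 0.26 at 2 h, where after quantile normalisation it was 0.07 and not called (adjusted p 0.0864). Ctse (ENSMUSG00000004552, chr1:131638306-131675505, plus strand), an aspartic protease of endosomes, was near the floor: it was at 3.77, 3.25 and 3.45 in LysM-Cre and 4.04, 4.28 and 3.98 in FosKO at baseline, and at 3.73, 3.28 and 3.62 against 3.78, 3.69 and 3.65 at 2 h. It passed the level only through FosKO libraries, so its difference at baseline (0.61) is given as a description.

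Lamp1 and Lamp2, which encode the heavily glycosylated proteins that line the lysosomal membrane, were called higher at all 4 times as deposited. Lamp1 (ENSMUSG00000031447, chr8:13159161-13175338, plus strand) was at 15.22, 15.25 and 15.21 in LysM-Cre and 15.38, 15.48 and 15.48 in FosKO at baseline, and at 15.29, 15.27 and 15.31 against 15.53, 15.54 and 15.53 at 2 h. No FosKO library was below a LysM-Cre library at either time. The difference was 0.22 (SE 0.03, adjusted p 6.72e-06) and 0.24 (adjusted p 1.17e-06), and after quantile normalisation it was 0.16 at baseline and 0.04 at 2 h, where it was not called (adjusted p 0.354). Lamp2 differed by 0.20 and 0.29, and by 0.12 and 0.13 after quantile normalisation, when it was not called at 1 h (0.07, adjusted p 0.0813).

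Of the 3 mucolipin genes, which encode cation channels of endosomes and lysosomes, Mcoln2 (ENSMUSG00000011008, chr3:146149833-146195513, plus strand) changed most. It was at 10.37, 10.40 and 10.40 in LysM-Cre and 10.91, 11.13 and 11.12 in FosKO at baseline. At 0.5 h it was 10.34, 10.32 and 10.37 against 11.09, 11.10 and 11.37, at 1 h 10.68, 10.66 and 10.70 against 11.11, 11.23 and 11.20, and at 2 h 11.29, 11.32 and 11.32 against 11.43, 11.42 and 11.44. The libraries did not overlap at any time, but the gap had almost closed at 2 h. The difference was 0.66 (SE 0.06, limma adjusted p 2.62e-08), 0.84, 0.50 and 0.12, the last with an adjusted p of 0.104. Mcoln1, the channel gene mutated in mucolipidosis, differed by 0.14 at baseline and 0.09 at 2 h, where after quantile normalisation it was 0.05 and not called (adjusted p 0.243). Mcoln3 was low and was not called (interval -0.38 to 0.31 at baseline).

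In the V1 domain of the pump, 7 of 9 subunit genes were called higher at baseline (background 19.5%) and 8 at 2 h (background 24.4%), with medians of 0.13 and 0.16. After quantile normalisation 4 were higher and 2 lower at baseline and 3 were higher at 2 h, with medians of 0.08 and 0.04. One of those turned to lower was Atp6v1a, the catalytic A subunit gene, at 0.07 as deposited and -0.11 after quantile normalisation at baseline (adjusted p 0.0364 and 0.0186). The largest difference was that of Atp6v1d, a subunit of the rotating stalk, at 0.38 and 0.33. Atp6v1e1 (ENSMUSG00000019210, chr6:120794305-120822793, minus strand), a subunit of the outer stalks, was at 11.63, 11.55 and 11.54 in LysM-Cre and 11.70, 11.73 and 11.76 in FosKO at baseline, and at 12.03, 12.05 and 12.07 against 12.26, 12.29 and 12.33 at 2 h. It differed by 0.16 (SE 0.03, limma adjusted p 0.000302) and 0.24 (adjusted p 1.10e-06), without overlap, and by 0.08 and 0.10 after quantile normalisation, still called. Atp6v1b2 (ENSMUSG00000006273, chr8:69088646-69113711, plus strand), a subunit of the ATP-hydrolysing head, was at 13.83, 13.79 and 13.77 against 13.83, 13.87 and 13.81 at baseline, where the genotypes overlapped (difference 0.04, adjusted p 0.209). At 2 h it was at 13.70, 13.64 and 13.68 against 13.84, 13.87 and 13.88, apart by 0.19 (adjusted p 1.68e-06). Under quantile normalisation these became -0.09 (adjusted p 0.0353) and 0.01 (adjusted p 0.814).

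In the V0 domain 5 of 7 genes were called higher and 1 lower at baseline (background 19.5% and 15.9%), and 4 higher and 0 lower at 2 h (background 24.4% and 20.3%). After quantile normalisation 2 were higher and 1 lower at baseline, and 1 higher and 1 lower at 2 h. Atp6v0c differed by 0.31 and 0.28, which became 0.17 and 0.03 after quantile normalisation, the second not called (adjusted p 0.532). Atp6v0d1 differed by 0.27 and 0.26, with 0.21 and 0.13 after quantile normalisation, both called. The table also lists a processed pseudogene of Atp6v0c, Atp6v0c-ps1 (0.81 to 1.21), so a few reads may have been shared. Atp6v0a1 (ENSMUSG00000019302, chr11:101009452-101063719, plus strand), a form of the large subunit that lines the proton path, went the other way. It was at 13.64, 13.69 and 13.65 in LysM-Cre and 13.58, 13.52 and 13.58 in FosKO at baseline, and at 13.77, 13.78 and 13.71 against 13.75, 13.71 and 13.72 at 2 h, where the genotypes overlapped. The difference was -0.10 at baseline (SE 0.03, limma adjusted p 0.00790), then -0.19 and -0.13 at the middle times, and finally -0.03 (adjusted p 0.439). Without FosKO replicate 2 at baseline it was -0.07 and not called (adjusted p 0.0570), and with quantile normalisation it was called at 2 h (-0.23). Its paralog Atp6v0a2 differed by 0.14 at baseline and 0.07 at 2 h, where it was not called, and after quantile normalisation it was called at neither (0.10, adjusted p 0.0550, and -0.0067).

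Atp6v0d2 (ENSMUSG00000028238, chr4:19876841-19922605, minus strand), the form of the d subunit known from osteoclasts and macrophages, was at 12.15, 12.21 and 12.11 in LysM-Cre and 12.18, 12.35 and 12.48 in FosKO at baseline, which overlapped. At 2 h it was at 12.01, 11.97 and 11.98 against 12.13, 12.13 and 12.21. Its difference was 0.19 (adjusted p 0.0269) and 0.17 (adjusted p 0.0321), and after quantile normalisation 0.09 and 0.045, neither called. Single libraries decided both calls as deposited. Leaving out replicate 1 or 3 of LysM-Cre, or 2 or 3 of FosKO, ended the baseline call, and leaving out any LysM-Cre library, or replicate 3 of FosKO, ended the call at 2 h, with differences between 0.11 and 0.18. Of the accessory genes, Atp6ap2, the prorenin receptor gene, differed by 0.13 and 0.21 and was called at all 4 times as deposited. After quantile normalisation it was 0.05 and 0.06 and was called at 0.5 h alone (0.09, adjusted p 0.0205). Atp6ap1 was called at 2 h alone, with a difference of 0.07 that became -0.0455 and was not called (adjusted p 0.283).

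The genotype differences were also read within the sets of libraries with high or low 18S content, with no test, since 4 of the 8 arms hold 1 library. At 0.5 h the median over the 34 genes was 0.22 among the high libraries (2 per genotype) and 0.19 between the 2 low ones. At 1 h it was 0.18 in the high set (2 FosKO libraries and 1 LysM-Cre library) and 0.15 in the low set (1 and 2). In that low set 27 of the 34 differences were above 0, against 31 in the high set. The sign differed between the 2 sets for 6 of the 34 genes, which were Atp6v1g2 (0.13 in the high and -0.17 in the low libraries), Atp6v0b (0.11 and -0.04), Atp6v0d2 (0.14 and -0.0052), Ctsk (0.13 and -0.02), Ctsf (0.0078 and -0.09) and Mcoln3 (-0.06 and 0.23). The Ctsl difference was -0.69 (high) and -0.76 (low) at 0.5 h, then -0.82 and -0.78 at 1 h. For Ctsc it was 0.74 and 0.62, then 0.91 and 0.74, and for Mcoln2 0.90 and 0.73, then 0.54 and 0.44. Neutrophil genes moved with the genotype at a low level. The sum of 2 to the power of the values over the 9 listed neutrophil genes in the table was 80.1 to 109.6 in LysM-Cre and 55.2 to 65.7 in FosKO at baseline, and 131.2 to 172.4 against 77.6 to 89.0 at 2 h. All 4 that could be tested were called lower at both times, and their part in the cathepsin values was not tested. The osteoclast list, which shares Ctsk and Atp6v0d2 with the genes described, summed to 5749 to 6135 against 5858 to 7002 at baseline. Atp6v0d2 was the highest of that list by far (11.97 to 12.48), so the sum mostly restates it. Of the 6 osteoclast genes tested, 2 were called higher and 2 lower at baseline, and 2 higher and 3 lower at 2 h. In bulk RNA, fewer cells of a type and less RNA per cell cannot be told apart.

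The response to LPS was then followed within each genotype. At 0.5 h limma called 0 of the 34 genes in LysM-Cre (0 at an unadjusted p under 0.05; background 7.24%) and 0 in FosKO (8 unadjusted; background 5.92%). With the replicate number as a block within genotype, 1 was called in FosKO at 0.5 h. At 1 h it called 12 genes in LysM-Cre, all higher (background for rises 19.2%), and 9 in FosKO, all higher (background for rises 17.6%). At 2 h it called 15 in LysM-Cre, or 44.1% (background 60.8%), of which 13 were higher (background 30.6%) and 2 lower, and 21 in FosKO, or 61.8% (background 62.1%), of which 19 were higher (background 32.6%) and 2 lower. These LPS comparisons share their baseline libraries within a genotype. Markers of other cell types also moved with LPS. The dendritic cell list (5 genes, with Cd209a below 0 in every library) summed to 37.5 to 39.5 at baseline and 124.6 to 133.0 at 2 h in LysM-Cre, where all 3 tested genes were called higher, and to 37.5 to 47.1 and 97.0 to 100.0 in FosKO. All 4 tested neutrophil genes were called higher at 2 h in LysM-Cre, and the sums of that list were given above. The part of these lists in the LPS results was not tested. 

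The direction of these LPS counts turned with the scaling. After quantile normalisation 3 genes were called higher (background 14.7%) and 15 lower (background 24.4%) at 1 h in LysM-Cre, and 2 (background 12.7%) and 19 (background 23.2%) in FosKO. At 2 h 4 genes were called higher (background 24.2%) and 22 lower (background 36.3%) in LysM-Cre, and 4 (background 23.8%) and 22 (background 36.9%) in FosKO. Of the genes called higher at 2 h as deposited, 7 in LysM-Cre and 13 in FosKO became called lower. The 1032 abundant genes had a median difference of 0.15 in LysM-Cre and 0.21 in FosKO at 2 h as deposited, which became -0.18 and -0.18. The sum of 2 to the power of all values also grew with time, from 20.6 to 20.9 in LysM-Cre and 21.3 to 22.4 in FosKO at baseline, to 24.2 to 24.6 and 27.2 to 27.5 at 2 h (in units of 1e6). This sum depends on the normalisation and does not measure depth. A direction is therefore given below only for genes that kept it under both scalings, or with both values.

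Ctsc, Mcoln2 and Atp6v1e1 were called higher at 2 h in both genotypes under both scalings. Ctsc rose by 1.03 in LysM-Cre (SE 0.07, limma adjusted p 1.57e-10) and by 1.65 in FosKO (adjusted p 5.73e-14), or 2.04-fold and 3.14-fold. After quantile normalisation the rises were 0.70 and 1.19. Mcoln2 rose by 0.93 in LysM-Cre (SE 0.06, adjusted p 1.19e-11) and by 0.38 in FosKO (adjusted p 7.35e-06), with 0.77 and 0.15 after quantile normalisation. Atp6v1e1 rose by 0.47 (SE 0.03, adjusted p 1.22e-11) and 0.56 (adjusted p 6.83e-13), with 0.22 and 0.24 after quantile normalisation. Atp6v1h, a regulatory V1 subunit gene, rose by 0.29 in both genotypes as deposited, and after quantile normalisation by 0.09 in LysM-Cre, whereas the value of 0.03 in FosKO was not called (adjusted p 0.388). Atp6v0d2 fell by 0.17 in LysM-Cre (adjusted p 0.0243) and by 0.18 in FosKO (adjusted p 0.0155), and by 0.47 and 0.52 after quantile normalisation. As deposited the first call ended when replicate 2 at baseline, or replicate 2 or 3 at 2 h, was left out, with differences of -0.15 to -0.17. The second ended without replicate 3 at baseline (-0.11), and in FosKO the times overlapped.

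Several abundant genes had opposite signs under the 2 scalings. Ctsz was 0.25 higher at 2 h than at baseline in LysM-Cre as deposited (adjusted p 0.000129) and -0.21 after quantile normalisation. Lamp1 differed by 0.06 (adjusted p 0.0697) and -0.27, and Ctsl by 0.05 (adjusted p 0.263) and -0.38. Atp6v0a1 differed by 0.10 (adjusted p 0.00305) and -0.21. Ctsb differed by 0.04 (adjusted p 0.465) and Ctsd by -0.03 (adjusted p 0.645) as deposited, with intervals of -0.05 to 0.13 and -0.12 to 0.07. After quantile normalisation Ctsb was at 0.00 and Ctsd at -0.08, neither called, so these signs did not reverse. For Ctsh the 2 h change in LysM-Cre was 0.26 as deposited (adjusted p 4.82e-06) and 0.05 after quantile normalisation (adjusted p 0.215).

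**Figure D3:**
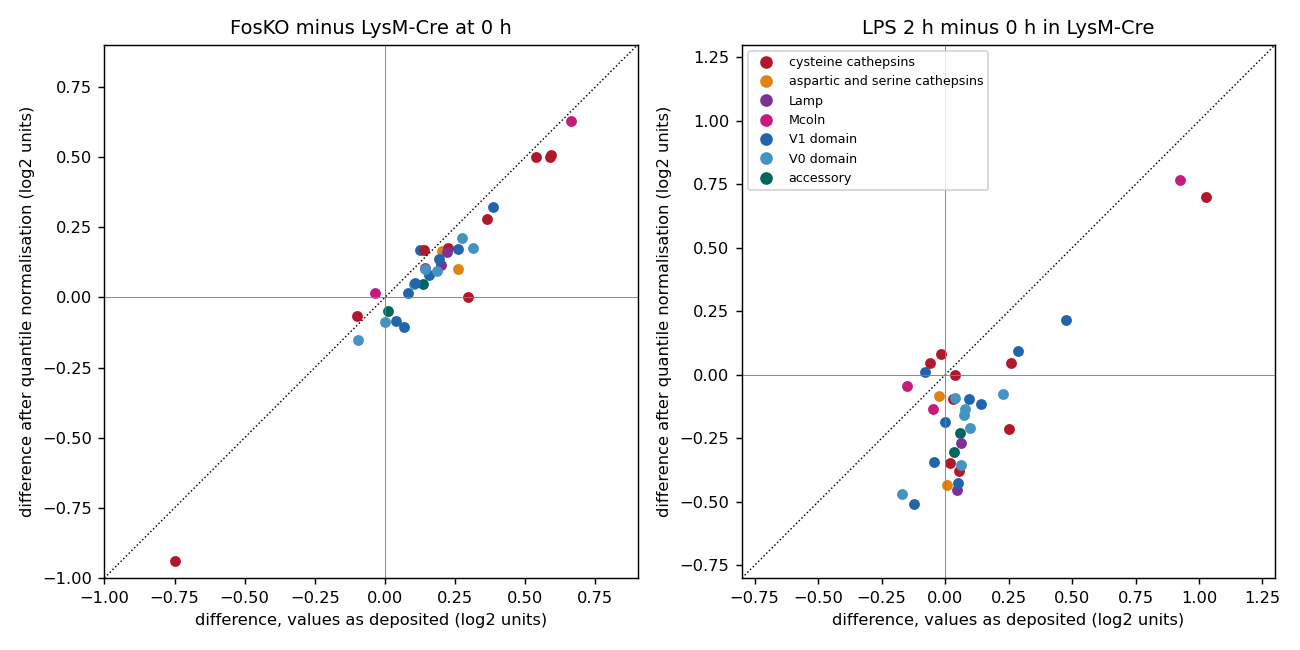
Difference of each of the 34 genes (log2 units) with values as deposited (x axis) and after quantile normalisation (y axis), for the genotypes at baseline (left) and for 2 h of LPS in LysM-Cre (right); the dotted line marks equal values and colours give the role. The genotype differences mostly lie a little under the line, with Ctsb at 0.00 on the y axis, whereas most LPS differences lie below 0 on the y axis, and Ctsc (0.70) and Mcoln2 (0.77) remain well above it.

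The difference between the genotypes in their LPS response was tested directly. At 0.5 h and at 1 h limma called 0 of the 34 genes (3 and 1 at an unadjusted p under 0.05; background 0.115% and 1.22%). At 2 h it called 3 (8.82%; background 15.0%). Ctsc responded more in FosKO, by 0.63 (SE 0.11, adjusted p 0.000322), and Mcoln2 less, by -0.55 (SE 0.08, adjusted p 8.52e-05). Both held after quantile normalisation, at 0.49 and -0.62. Atp6v1b2 differed by 0.15 (SE 0.03, adjusted p 0.00405): it fell by 0.12 in LysM-Cre and moved by 0.03 in FosKO, where it was not called. After quantile normalisation its response difference was 0.10 (adjusted p 0.163) and it fell in both genotypes, by 0.51 and 0.41. For the other 31 genes the response difference was not called, with values between -0.16 and 0.17, and after quantile normalisation Ctsz was called as well (-0.21, adjusted p 0.00404; -0.10 and adjusted p 0.358 as deposited). For Ctsl it was 0.09 (interval -0.02 to 0.21) and for Ctsb 0.06 (interval -0.07 to 0.19).

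**Figure D4:**
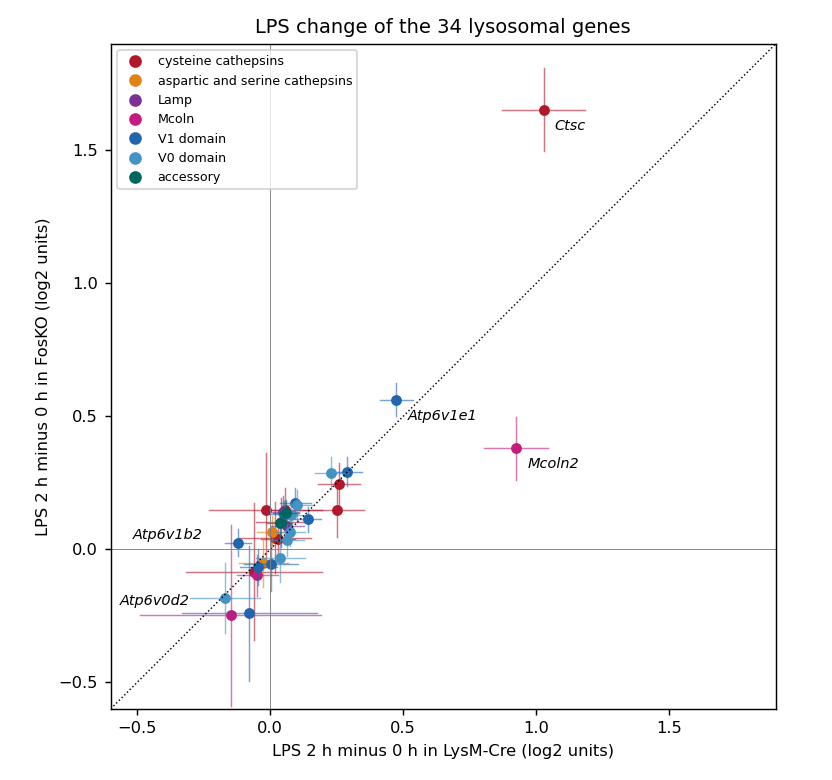
Change of each of the 34 genes from 0 h to 2 h of LPS in LysM-Cre (x axis) and in FosKO (y axis), in log2 units of the deposited values, with 95% intervals from limma; the dotted line marks equal responses, and the 2 axes share no libraries. Most genes lie within 0.3 of 0 on both axes, Ctsc lies above the line (1.03 and 1.65) and Mcoln2 below it (0.93 and 0.38).

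Other genes of the lysosome were read from lists. The background for the genotype counts of each list is 19.5% called higher and 15.9% lower at baseline, and 24.4% and 20.3% at 2 h. After quantile normalisation it is 16.4% and 19.8% at baseline, and 18.7% and 24.7% at 2 h. Of 34 acid hydrolase genes, 15 were called higher and 2 lower in FosKO at baseline, and 21 higher and 1 lower at 2 h, which became 12 and 5, and 11 and 9, after quantile normalisation. Glb1, the beta-galactosidase that cathepsin A protects, was higher by 1.23 at baseline (SE 0.05, limma adjusted p 2.44e-13) and 1.34 at 2 h. Acp2, the lysosomal acid phosphatase, was higher by 0.59 at baseline and Gla, the alpha-galactosidase, by 0.52 at 2 h. Those called lower were Fuca1 (-0.10) and Ppt1 (-0.09) at baseline and Acp5 (-0.61) at 2 h. Of 17 genes listed with the lysosomal membrane, 9 were called higher and 2 lower at baseline, and 10 and 2 at 2 h. These became 6 and 2, and 5 and 2, after quantile normalisation. At baseline Clcn7, a chloride and proton exchanger that works beside the pump, was higher by 0.45 and the cholesterol carrier gene Npc2 by 0.45. The channel gene Tpcn1 was lower by 0.37 and the metal transporter gene Slc11a1 by 0.33, also at baseline.

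The list that adds pump assembly factors and the a3 subunit gene Tcirg1 had 6 of 10 genes called higher and 0 lower at baseline. At 2 h it had 6 and 1, and after quantile normalisation 5 and 1 at baseline and 3 and 1 at 2 h. Tcirg1 was higher by 0.37 (SE 0.05, adjusted p 2.74e-06), against the -0.10 of Atp6v0a1. Among 5 tested cathepsin inhibitor genes 3 were called higher and 2 lower at baseline, with Cst7, which encodes cystatin F, an inhibitor of cathepsin C, higher by 1.07 (SE 0.10, adjusted p 1.23e-07). Cystatin C (Cst3) fell by 0.19. In the sorting list Igf2r, a mannose 6-phosphate receptor gene, fell by 0.57 at baseline, while the other receptor of this kind, M6pr, rose by 0.13. Of 13 genes for the MiT factors and their control, 5 were called higher and 4 lower at baseline, and 4 and 2 at 2 h. These became 5 and 5, and 4 and 5, after quantile normalisation. As deposited, those called at 2 h included Tfeb (lower) and Fnip1 (higher). At baseline Rragd was higher by 0.56 and Rragb lower (-0.66), both subunits of the GTPase that recruits mTORC1 to lysosomes.

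With 2 h of LPS in LysM-Cre, 7 of those 13 genes were called lower and 3 higher, where 60.8% of all tested genes were called in either direction. After quantile normalisation 9 were lower and 2 higher. Tfeb fell by 1.41 (SE 0.05, limma adjusted p 1.63e-15) and Flcn, which encodes a regulator of the same pathway, by 1.28, while Tfec rose by 2.67 (SE 0.05, adjusted p 8.20e-20) and Mitf by 1.2. All 4 kept their direction and call after quantile normalisation. The acid hydrolases had 2 of 34 called higher and 15 lower at that time as deposited. The background there is 30.6% called higher and 60.8% called in either direction. After quantile normalisation 1 was called higher and 31 lower, where the background is 24.2% higher and 36.3% lower.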

How the data were processed

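RNA from mouse BMDMs of 2 genotypes at 4 times was sequenced as single-end TruSeq libraries on a HiSeq 2500. The authors deposited 1 table of normalised log2 values for 24273 genes in 24 columns, and all 24 were used. The submitters' processing notes name STAR 2.5.2a, RSEM 1.2.31, DESeq2 1.16.1 and the mm10 build, with RefSeq genes, although the table carries Ensembl identifiers. The values have no zeros and resemble a regularised log, which would understate differences of low genes. A typical sequencing yield is stated by the study, but the depth of each library is unknown.

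limma 3.58.1 in R 4.3.3 was run on the values as deposited, with 8 group means, a variance trend and 16 residual degrees of freedom. The design had foreseen a pseudocount, which became an alternative because the values were already logarithms. Genes whose value, as a power of 2, was at least 5 in at least 3 libraries were tested (13901, with all 35 genes described). P-values of 13 comparisons were adjusted by Benjamini-Hochberg over all tested genes and called under 0.05. Intervals are 95% and cover the spread between libraries. The fit was tested on simulated data. No label says that replicate numbers pair the libraries. In FosKO all 3 same-numbered pairs had deviations correlated over 0.1 between 0 h and 0.5 h (0.134 to 0.269) and between 0.5 h and 1 h (0.33 to 0.706), so that the block is given beside the first of these comparisons.

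The genes and lists were chosen with earlier results of these data known. The named genes were Ctsb, Ctsd and Lamp1 and up to 3 of the largest called rises and falls among the members at 0 h, at 2 h, with 2 h of LPS in LysM-Cre and in the difference in response. Other lists gave up to 2 of each, and the remaining genes were named to show their group. Alternatives were quantile and TMM scaling, a pseudocount of 1, no filter, only the groups compared, a replicate block, 18S content and leaving out each library. No columns of the authors' own comparisons were used.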

Additional observations from a re-analysis of the deposited data

Results flagged for a closer look

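The response to 2 h of LPS differed between FosKO and LysM-Cre for 3 of the 34 genes by limma's test of the difference itself (8.82%, under the background of 15.0% of all tested genes). Ctsc responded more in FosKO by 0.63 (interval 0.40 to 0.85, adjusted p 0.000322). All 3 FosKO libraries at 2 h lay above all LysM-Cre libraries of that time. They already did so at 0 h, so this separation does not bear on the response. Mcoln2 responded less by -0.55 (interval -0.72 to -0.38, adjusted p 8.52e-05), from levels that were already apart at 0 h. Atp6v1b2 differed by 0.15 (interval 0.08 to 0.22, adjusted p 0.00405), and its value after quantile normalisation was 0.10 (adjusted p 0.163). All 3 were called when any 1 library was left out.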

How the results depend on the processing

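The number of the 34 genes called in either direction stayed within 1.5 times under TMM factors, a pseudocount of 1, no filter and a term for 18S content, in all 13 comparisons, while the 18S term took the number called lower at 1 h of LPS in FosKO from 0 to 1. Quantile normalisation moved it from 26 to 11 for the genotypes at 2 h, and for LPS in LysM-Cre to 7 (from 0) at 0.5 h and to 26 (from 15) at 2 h, and in FosKO to 4 (from 0) at 0.5 h and to 21 (from 9) at 1 h. With high 18S libraries only, which leaves 1 LysM-Cre library at 1 h with its spread taken from the other groups, 5 rather than 12 genes were called there, which does not show a dependence on 18S content, and with only the groups compared 4 rather than 9 at 1 h in FosKO. Leaving out 1 library gave 22 to 26 at 0 h, 25 to 28 at 0.5 h, 23 to 24 at 1 h and 24 to 25 at 2 h between genotypes, and 0 to 2 at 0.5 h of LPS in FosKO. Quantile normalisation reversed the sign for Atp6v1b2 between genotypes (-0.086 at 0 h, -0.047 at 0.5 h, -0.086 at 1 h), for Ctsb at 1 h (-0.23), for M6pr at 2 h (-0.022) and, among genes outside the rule for named genes that were called as deposited at 1 or more of these times, for Atp6v1a (-0.13 to -0.05) and Atp6ap1 (-0.062 to -0.0236) at all 4 times and Atp6v1h (-0.0152) and Atp6v0a2 (-0.0067) at 2 h. Of the genes never called as deposited, Atp6v0b turned at 0.5, 1 and 2 h (-0.0801 to -0.0123), Mcoln3 at 0 h (0.0138) and Atp6v1g2 at 2 h (0.0134). With 2 h of LPS it did so for 22 of the 34 genes in LysM-Cre and 20 in FosKO, 18 and 17 of them called after it. Of the named genes, those of other lysosomal lists included, it did so in LysM-Cre for Atp6v0a1 (-0.21), Ctsl (-0.38), Ctsz (-0.21), Lamp1 (-0.27), Acp2 (-0.11), Npc2 (-0.32), Cstb (-0.25) and Tcirg1 (-0.058), and in FosKO for Atp6v0a1 (-0.28), Atp6v1b2 (-0.41), Ctsh (-0.079), Ctsl (-0.25), Ctsz (-0.42) and Lamp1 (-0.39). The cause was not tested, except that Ctsb is ranked 1 or 2 in every library and is moved only by its rank. In FosKO the LPS calls at 2 h of Ctsz (0.09) and Lamp1 (0.05) ended without replicate 1 at 0 h.

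Between genotypes the replicate numbers did not pair the samples: of 12 pairs 2 had correlated deviations over 0.1, and 3 correlated best with their own number. Between times within a genotype 30 of 36 pairs correlated best with their own number, as a hint from the data, and 12 were over 0.1. With the replicate block all 39 counts stayed within 1.5 times and 158 of 160 values of named genes kept their call, the other 2 becoming called, and with a replicate block within genotype 1 rather than 0 genes was called at 0.5 h of LPS in FosKO, with 14, 17, 10 and 23 at 1 h and 2 h in LysM-Cre and then FosKO (12, 15, 9 and 21 without it).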
